A study of Mus musculus with 4 samples.

Results

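A synthetic miR-26a was put into mouse joint capsule cells that lack the microRNA, and its RNA-seq library was set against that of the same kind of cells given a negative-control oligonucleotide. The comparison uses 2 of the 4 libraries of the study, chosen by their labelled treatment. It takes in all 16416 genes of the deposited table, of which 12512 (76.2%) had at least 1 CPM (reads scaled to library size) in either library and are called measured below. The study worked with cells labelled as synovial fibroblasts, which grew out of shoulder joint capsule tissue taken 1 week after the joint had been immobilized and were used at passage 2. Both libraries came from miR-26a -/- cells, and each culture was transfected for 24 h with a lipid reagent. One received 10 nM of a double-stranded miR-26a mimic and the other 10 nM of Silencer Negative Control siRNA#1. The other libraries of the study, from untransfected wild-type cells of C57BL6/J mice and untransfected miR-26a -/- cells, are used only to place the levels. Each group was 1 library, and the labels do not say how many animals gave the cells, which of the loci of miR-26a was deleted, or whether the 2 transfected cultures came from the same animal. No difference therefore has a replicate check, no p-value is given, and every direction is one between libraries.

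MicroRNAs guide Argonaute proteins to messenger RNAs. Bases near the 5′ end of the microRNA, the seed, pair with matching sites, most effectively in the 3′ untranslated region (3′ UTR), and the paired transcript is then translated less and degraded sooner. The miR-26 family is made from introns of genes of the Ctdsp phosphatase family and is best known for holding back cell division, through cyclins, and for lowering the histone methyltransferase Ezh2. In connective tissue and other fibrotic settings its described targets include genes of collagen modification and of growth factor signalling. A mimic is a duplex of a guide strand, which is meant to be loaded into Argonaute, and a passenger strand, which is meant to be discarded.

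The strands of the duplex as the labels give them are shown first, because the sites searched for were derived from them. They stand beside the mature mouse miR-26 sequences of RefSeq (GRCm38.p6), with bases 2 to 8 in capitals.
mimic guide strand: uUCAAGUAauccaggauaggcu
mmu-miR-26a-5p: uUCAAGUAauccaggauaggcu
mmu-miR-26b-5p: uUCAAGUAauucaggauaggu
mimic passenger strand: cCUAUUCUugguuccuugcacg
mmu-miR-26a-1-3p: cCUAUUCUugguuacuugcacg
The guide strand was identical over its 22 bases to miR-26a-5p, which RefSeq places in Mir26a-1 on chromosome 9 (119031811 to 119031832, plus strand) and in Mir26a-2 on chromosome 10 (126995543 to 126995564, plus strand). MiR-26b-5p of chromosome 1 (74394324 to 74394344) has the same seed, is 21 bases long and differs at 2 positions over the shared length. The labelled passenger strand differed from miR-26a-1-3p by C14A, with the labelled strand first and positions counted from its 5′ end. The sequence of the negative-control siRNA was not used here.

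Sites in messenger RNA are written as DNA. An 8mer site, TACTTGAA, pairs with guide bases 2 to 8 and carries an A behind the pairing. A 7mer-m8 site, TACTTGA, lacks that A, a 7mer-A1 site, ACTTGAA, has the A but pairs only up to base 7, and a 6mer site, ACTTGA, has neither. Only the strand of the transcript was searched, and each gene was put in the class of its best site in any annotated 3′ UTR (GENCODE M21, GRCm38). The following 3′ UTR stretches belong to 8mer genes with some of the lowest ratios to the negative control, each 22 bases long and with the pairing part and its A in capitals.
Slc22a23: cctgttgccagtacTACTTGAA
Hoxa9: tcattctgccaaaaTACTTGAA
Adam19: acatctatgcaaaaTACTTGAA
Slc7a11: tgtttgtatattttTACTTGAA
Gmds: tcacatactcatttTACTTGAA
Frk: aaatgacttgattgTACTTGAA
Plod2: ttttaaagcttacgTACTTGAA
Fbxl19, first site: ggctctctacacaaTACTTGAA
Fbxl19, second site: ctgtactgaagtgtTACTTGAA
On GRCm38 the printed stretches lie at chr13:34182031-34182052 (minus strand) for Slc22a23, chr6:52223795-52223816 (minus) for Hoxa9, chr11:46147237-46147258 (plus) for Adam19 and chr3:50365028-50365049 (minus) for Slc7a11. They lie at chr13:31819667-31819688 (minus) for Gmds, chr10:34609105-34609126 (plus) for Frk and chr9:92608056-92608077 (plus) for Plod2. The sites of Fbxl19, at chr7:127768696-127768717 and chr7:127768725-127768746 (plus), start 29 bases apart. Slc22a23 and Plod2 each hold a further 7mer-m8 site, 220 and 769 bases away from the 8mer.

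The mimic library held 18584404 estimated counts and the negative-control library 19392655, and the untransfected wild-type and knockout libraries 18198033 and 17598763. Between 15150 and 15370 genes had a count above 0. Ratios are log2 ratios of mimic to negative control from counts scaled with edgeR's TMM factors, and the range in parentheses behind a ratio is its exact 95% binomial (Clopper-Pearson) interval. They leave out every error but that of counting, because reads are not molecules counted independently. Levels are the authors' TPM, which are scaled by transcript length and by library.

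The cells carried the markers of their label and also those of macrophages. The fibroblast markers Col1a1 and Col1a2, which encode the chains of type I collagen, were at 2733.3 and 2456.81 TPM in the negative-control library and at 3233.5 and 2399.81 TPM in the mimic library. Lyz2, the lysozyme of myeloid cells, was at 17285.61 and 17807.07 TPM, and the complement gene C1qc at 2847.22 and 2621.07 TPM. All 20 macrophage markers were measured, and their summed level was 31523.66 TPM in the mimic and 31610.95 TPM in the control-transfected library. Lyz2 made up most of that sum, and the other 19 markers summed to 13716.6 and 14325.3 TPM in the same order. The counting interval lay below 0 for 10 of the 20 and above 0 for 5, beside 18.8% and 19.1% of all measured genes. Intervals of abundant markers are narrow, and that of C1qc, at a ratio of -0.12, was -0.15 to -0.09. The 18 measured fibroblast markers summed to 12916.64 TPM with the mimic and 11853.13 TPM with the negative control. Fewer cells of a type and less RNA per cell cannot be told apart in such bulk libraries. Of 10 lymphocyte markers 4 were in the table and none was measured, and 4 of 10 endothelial markers were measured. Among these Eng was at 64.45 and 68.01 TPM and Vwf at 6.75 and 7.58 TPM in the negative-control and mimic libraries. Kdr was at 3.25 and 2.53 TPM, a ratio of -0.36 (-0.69 to -0.05). Tek was at 0.41 and 0.63 TPM, on 19 and 28 counts. Tie1 had 0 counts in both libraries and Pecam1 3 and 0.

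Most transcripts were close to equal on both sides. The ratio lay within 1.2-fold for 75.1% of measured genes and within 1.5-fold for 94.4%, and the median was -0.01, with the middle of the genes between -0.14 and 0.14 (quartiles). A gene is called here when its ratio reaches 2-fold and its counting interval excludes no difference. By this rule 107 genes (0.855% of those measured) were higher with the mimic and 44 (0.352%) were lower. At 1.5-fold these were 359 (2.87%) and 210 (1.68%).

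Calls came mostly from rarely counted genes. Of the 107 higher genes 70 stayed under 5 TPM in both libraries, and of the 44 lower genes 35 did. The median level in the higher of the 2 libraries was 2.48 TPM for the higher and 2.15 TPM for the lower genes, against 21.8 TPM for all measured genes. Among the 1730 genes between 1 and 5 CPM 5.66% were called, with a median interval width of 1.3 on the log2 scale. Among the 2242 genes of at least 100 CPM 0.401% were called, with 8 higher and 1 lower, and their median interval width was 0.143.

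**Figure D1:**
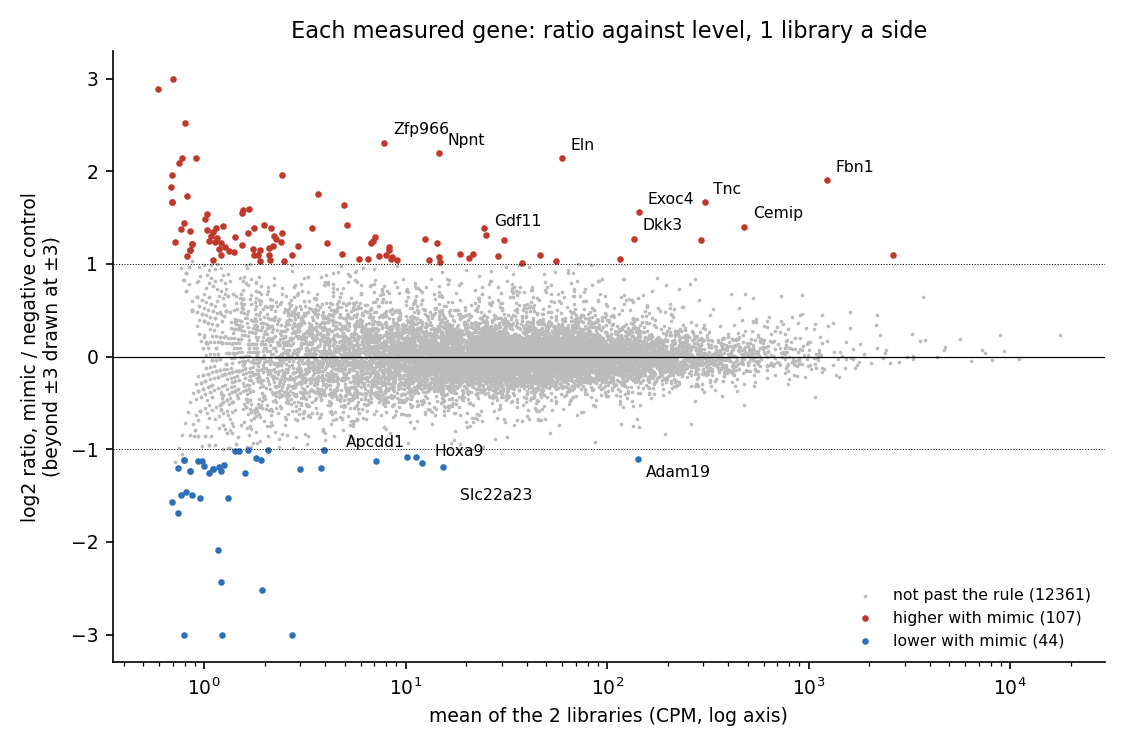
Log2 ratio of mimic to negative control for each of the 12512 measured genes (vertical axis) against its mean level in the 2 libraries (horizontal log axis, CPM). Red points are the 107 genes called higher and blue points the 44 called lower, 1 library a side; the spread narrows towards abundant genes, and Fbn1, Tnc, Cemip and Adam19 are among the called genes at high level.

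The transcripts that were lower with the mimic included many with a miR-26a 8mer. The 648 measured genes with an 8mer in the 3′ UTR had a median log2 ratio of -0.09. Below 0 lay 65.7% of this class and 51.7% of all 12321 measured genes with an annotated 3′ UTR. The share of genes at least 1.2-fold lower was 27.5% with an 8mer and 11.3% among all. The 8mer genes are 5.26% of measured genes with a 3′ UTR. They made up 41 of the 198 such genes that were lower by the 1.5-fold rule (20.7%) and 10 of the 348 that were higher (2.87%). Seen from the class, 6.33% of 8mer genes were lower by that rule and 1.54% higher, while 1.17% of genes without any site were lower and 2.88% higher.

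Taken over all 3′ UTR lengths, the shorter site classes stood close to the genes without a site. The median 3′ UTR length was 2581 bases for 7mer-m8 genes and 787 bases for genes without a site. Within classes of length, given below, the 7mer-m8 genes had lower medians than genes without a site. The median was -0.02 for 855 genes whose best site was a 7mer-m8, -0.01 for 1326 with a 7mer-A1, 0.02 for 1884 with a 6mer and -0.01 for the 7608 with none. The shares below 0 were 53.2%, 52.8%, 45.9% and 51.5% in the same order. At 1.5-fold 2.69% of the 7mer-m8 genes were lower and 2.34% higher, against 1.17% and 2.88% of genes without a site. Where the site lay only in the coding region, the median was -0.04 for 178 genes with an 8mer, 58.4% of them below 0, and -0.00 for 277 with a 7mer-m8.

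**Figure D2:**
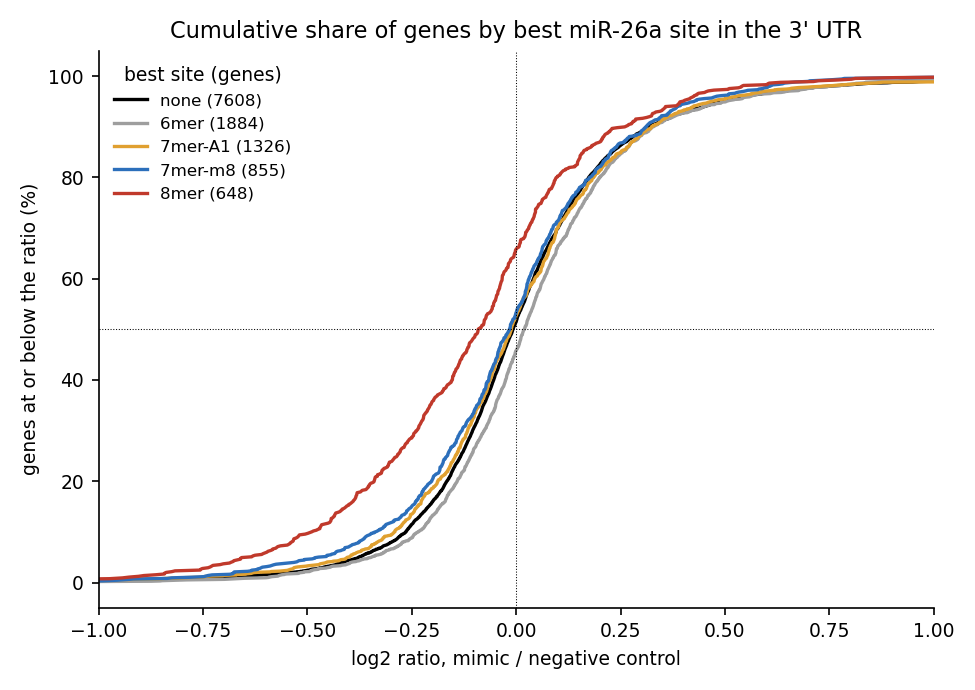
Cumulative share of genes (vertical axis, %) at or below each log2 ratio of mimic to negative control (horizontal axis), by the best miR-26a site in the 3′ UTR, with the number of genes in the legend. The 8mer curve lies to the left of the others and crosses 0 at 65.7% of its genes, whereas the curves of the remaining classes cross it between 45.9% and 53.2%.

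More sites went with somewhat lower ratios. Genes with 1 site of the 8mer or 7mer-m8 kind (1305) had a median of -0.04, and those with 2 or more (198) a median of -0.06, of which 62.6% lay below 0. The 40 genes with at least 2 8mers had a median of -0.13, with 70.0% below 0, beside -0.09 and 65.7% for all 648 8mer genes. Fbxl19, whose sites are printed above, is among the 40 but was picked for its low ratio. Cdk6, Tet3 and Tnrc6b, also with 2 8mers, had ratios of 0.41, -0.23 and -0.30. Fbxl19, an F-box protein, was at 21.33 TPM in control-transfected and 11.55 TPM in mimic-transfected cells.

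Only windows at the 5′ end of the guide strand had medians below that of all genes. When each run of 7 guide bases was taken in turn and genes with a 3′ UTR match to it were collected, the window of bases 2 to 8 had a median of -0.04 (1503 genes) and that of bases 1 to 7 a median of -0.03 (2208 genes). The other 14 guide windows ranged from 0.00 to 0.03. The 16 windows of the passenger strand ranged from 0.01 to 0.03. Neighbouring windows share bases and genes, and these classes are not independent of each other. The genes of a window were not matched to all genes for 3′ UTR length, with which ratios also differed, as given next.

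The length of the 3′ UTR went together with the size of the shift. Genes were divided into 4 classes by their longest annotated 3′ UTR. In the shortest class, up to 530 bases, the 28 genes with an 8mer had a median of -0.40, against -0.05 for the 2787 genes without a site. From 531 to 1222 bases the medians were -0.21 for 87 genes with and -0.01 for 2285 without, and from 1223 to 2330 bases -0.13 for 148 with and 0.02 for 1692 without. In the longest class, from 2333 bases, they were -0.04 for 385 genes with an 8mer and 0.07 for 844 without. The gap between genes with and without an 8mer was thus smaller in each longer class, and the median of genes without a site was higher in each longer class. The 7mer-m8 genes showed the same order, at -0.20, -0.07, -0.02 and 0.01, and in each class their median was below that of genes without a site.

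**Figure D3:**
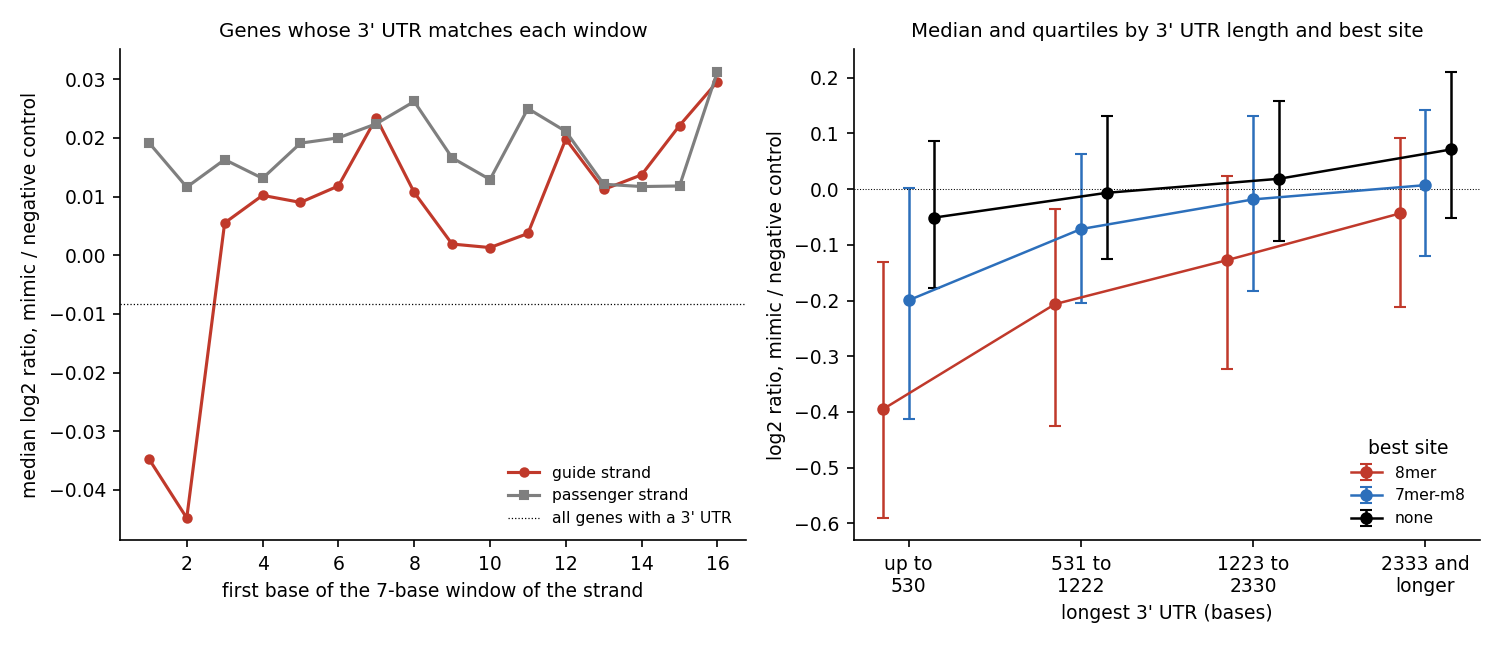
Left, median log2 ratio of mimic to negative control (vertical axis) of genes whose 3′ UTR matches each 7-base window of the guide (red) or passenger strand (grey), by the first base of the window (horizontal axis); the dotted line is the median of all genes with a 3′ UTR. Right, median with quartiles (bars) by class of 3′ UTR length in bases and best site; the 8mer genes are lowest in each class, from -0.40 in the shortest to -0.04 in the longest.

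Other features of the site went with smaller differences. Genes with a single 8mer had a median of -0.11 where the site lay in the first of 3 equal parts of the 3′ UTR, -0.08 in the middle part and -0.06 in the last. By the share of A and T in the 30 bases on each side, the medians were -0.09, -0.09 and -0.07 from the lowest to the highest share. Bases in register with guide bases 13 to 16 paired at all 4 positions in 5 genes, with a median of -0.15, and at none in 197 genes, with a median of -0.08. Between these, medians were -0.04, -0.08 and -0.11 for 3, 2 and 1 paired positions, which is no steady order. Across levels of 1 to 10, 10 to 50 and at least 50 CPM the 8mer medians were -0.07, -0.10 and -0.08.

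Genes with an 8mer in a 3′ UTR of at most 530 bases were mostly lower with the mimic. Of these 28 genes 25 lay below 0, and the counting interval lay wholly below 0 for 19 and wholly above for 0. Gmds, which makes the activated precursor of the sugar fucose, was at 36.76 TPM in the negative-control and 19.18 TPM in the mimic library, a ratio of -0.94 (-1.18 to -0.72). It stood at 43.64 and 34.62 TPM in the wild-type and knockout libraries, so the mimic library was the lowest of the 4. Srp19, a protein of the signal recognition particle, was at 117.11 against 71.63 TPM, a ratio of -0.71 (-0.88 to -0.54). Txndc15, a thioredoxin-domain protein, was at 89.27 against 56.05 TPM, and the anti-apoptotic gene Faim at 64.12 against 40.63 TPM. The ribosomal protein gene Rpl37 was at 699.1 against 536.97 TPM, and the nuclear import receptor Kpna2 at 133.91 against 101.3 TPM. The 3 genes above 0 were Zfp658, Dars and Adamts7, each with an interval that includes 0. Apart from Gmds, these genes were named after their values were seen.

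Among 8mer genes with at least 5 TPM the 12 lowest ratios ranged from -1.19 to -0.75, and in 12 of 12 the mimic library was the lowest of the 3 knockout libraries. The choice by ratio favours this order, which held for 56.7% of all measured genes below 0. They encode proteins of unrelated kinds. Slc22a23, a membrane transporter of the organic ion family, was at 13.92, 5.79, 6.91 and 3.06 TPM in wild-type, knockout, control-transfected and mimic-transfected cells. Hoxa9, a transcription factor of limb and body patterning, was at 11.01 against 4.96 TPM, with 16.4 and 8.55 TPM in the untransfected libraries. The ratios were -1.19 (-1.46 to -0.93) and -1.15 (-1.45 to -0.86), and for both genes the mimic library was the lowest of the 4.

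For Adam19, Slc7a11 and Fbxl19 the negative control was the highest library, as it also was for Frk, Abcg3, Plod2 and Rnf149. The metalloprotease Adam19 was at 34.35 TPM in wild-type, 32.73 TPM in knockout, 59.49 TPM in negative-control and 28.49 TPM in mimic cells. Slc7a11, the cystine transporter that feeds glutathione synthesis, was at 2.59, 4.02, 6.75 and 3.45 TPM in the same order. With the untransfected knockout library as reference the ratios of the mimic were -0.27 for Adam19, -0.26 for Slc7a11 and -0.49 for Fbxl19. The comparisons with these references share the mimic library and are not independent.

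For Plod2, Rnf149 and Gmds the negative control and the untransfected knockout were nearly level. Plod2, the lysyl hydroxylase that prepares collagen for stable crosslinks, was at 121.56, 131.52, 135.06 and 75.83 TPM from wild-type to mimic. Rnf149, a ubiquitin ligase, was at 108.55, 147.65, 154.39 and 90.78 TPM in the same order. Their ratios to the negative control were -0.84 (-0.91 to -0.77) and -0.76 (-0.84 to -0.68), and to the untransfected knockout -0.83 and -0.73. Frk, a tyrosine kinase, was at 9.18 against 4.89 TPM and Sema6d, a semaphorin, at 8.18 against 4.76 TPM. Abcg3, a transporter, and Gpsm1, a regulator of G proteins, completed the 12 with ratios of -0.89 and -0.75.

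Of the 9 lower genes with at least 5 TPM, 4 hold an 8mer or 7mer-m8, beside 1503 of all 12321 measured genes with a 3′ UTR. The 4 are Slc22a23, Hoxa9, Adam19 and the Wnt inhibitor Apcdd1, which has a 7mer-m8 and was at 9.18 against 4.34 TPM. The others were Perp, a desmosome protein induced by p53, at 6.01 against 2.98 TPM, Fam131b at 6.8 against 3.22 TPM, Lyzl4 at 5.45 against 1.71 TPM, the linker histone gene H1f10 at 6.46 against 3.15 TPM, and Rpl37rt. Rpl37rt is a near-identical copy of a ribosomal protein gene, and how reads were divided among the copies is uncertain. No annotated 3′ UTR was found for it, so it was not searched for sites. The mimic library was the lowest of the 3 knockout libraries for 9 of 9, an order that the choice by ratio also favours here. For Lyzl4, Fam131b and H1f10 the ratios to the untransfected knockout were -0.16, -0.25 and -0.54, with intervals that include 0. For the others that interval lay below 0. Lyzl4 had 14 counts in the untransfected knockout, 33 with the negative control and 13 with the mimic. Fam131b was at 3.71 TPM in the untransfected knockout.

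Among called genes with at least 5 TPM the 12 highest ratios included several genes of the extracellular matrix. Eln, which encodes elastin, was at 11.7 TPM in control-transfected and 53.31 TPM in mimic-transfected cells, a ratio of 2.14 (1.99 to 2.30). Fbn1, the microfibril protein fibrillin-1, was at 101.48 against 382.61 TPM, a ratio of 1.90 (1.87 to 1.94). Npnt, the integrin ligand nephronectin, was at 2.27 against 10.66 TPM and Tnc, tenascin-C, at 43.85 against 142.79 TPM. Dkk3, a secreted glycoprotein of the Dickkopf family, was at 48.02 against 117.37 TPM. Of the 12 genes named for the largest higher ratios 1, Zfp966, has an 8mer or 7mer-m8, beside 1503 of all 12321 measured genes with a 3′ UTR.

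In 12 of 12 of these genes the negative control was the lowest of the 3 knockout libraries and in 11 the lowest of all 4, while the mimic library was the highest of the 4 in 4. Choosing genes by the ratio of mimic to negative control favours a low negative control, which was the lowest of the 3 knockout libraries for 56.3% of all 6070 measured genes above 0. Eln was at 328.04 TPM in wild-type and 38.74 TPM in untransfected knockout cells, and Fbn1 at 641.27 and 345.29 TPM. Against the untransfected knockout the mimic ratio was 0.43 for Eln and 0.11 for Fbn1, while that of the negative control was -1.71 and -1.80. Exoc4, a subunit of the exocyst that tethers secretory vesicles, was at 97.57, 97.42, 32.27 and 92.18 TPM from wild-type to mimic, so that only the negative control differed from the rest. Gdf11, a TGF-beta family ligand, was at 22.74, 14.24, 4.84 and 12.16 TPM, and Rasl12, a small GTPase, at 7.86, 9.1, 3.47 and 8.68 TPM.

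A smaller set was higher than in every other library. Cemip, which breaks down hyaluronan, was at 59.36 TPM in wild-type, 95.43 TPM in knockout, 71.85 TPM in negative-control and 191.29 TPM in mimic cells. Ak4, a mitochondrial adenylate kinase, was at 11.79, 8.09, 5.99 and 16.05 TPM in the same order. Their ratios to the negative control were 1.40 (1.36 to 1.45) and 1.39, and to the untransfected knockout 0.96 and 0.97. Mgll, a lipase of monoacylglycerols, was at 7.0, 7.0, 4.03 and 9.96 TPM. Zfp966, not of this set, had the largest ratio among called genes with at least 5 TPM, 2.31 (1.88 to 2.78). It was at 10.85 TPM in the untransfected knockout and 10.53 TPM with the mimic, belongs to a family of near-identical zinc finger genes, and its value is uncertain.

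**Figure D4:**
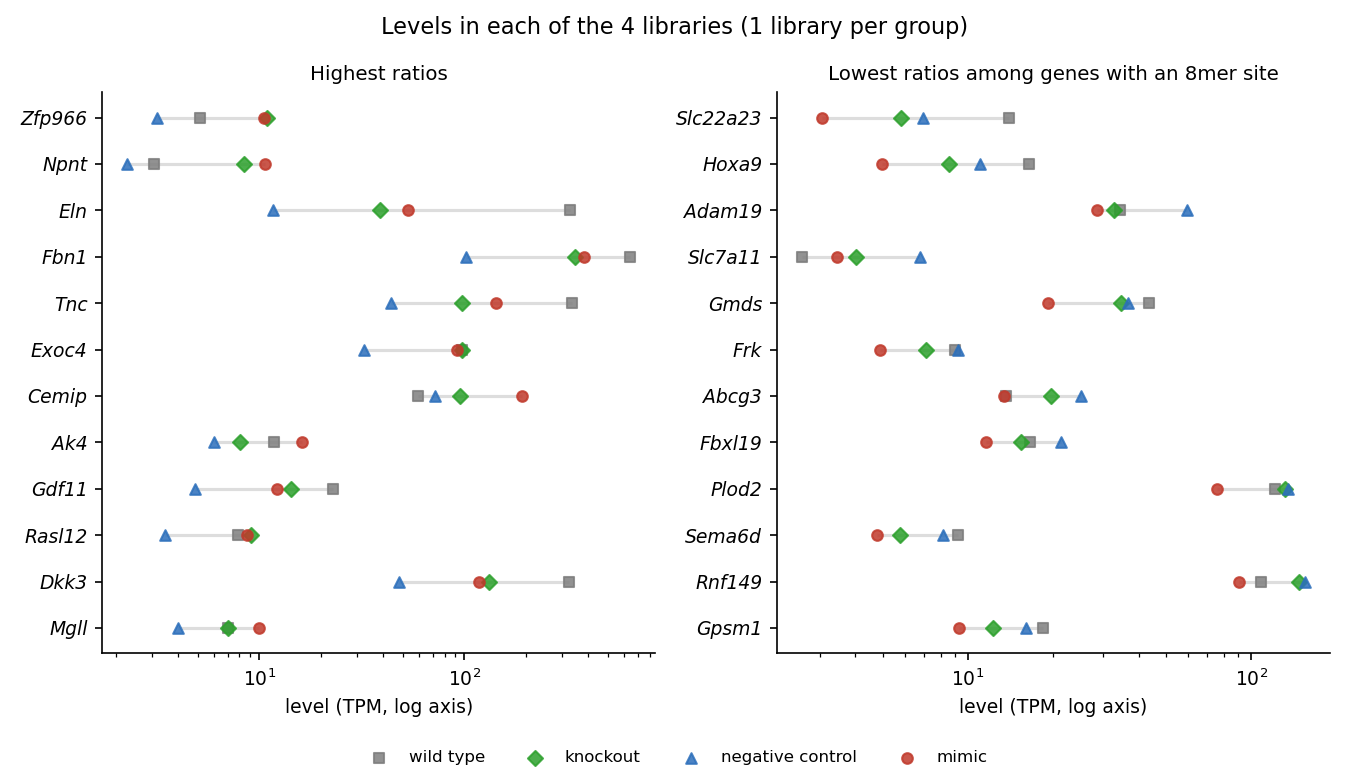
Level of each gene (horizontal log axis, TPM) in the 4 libraries, 1 point per library. Left, the 12 highest ratios, where the negative control (blue triangles) is the lowest of the 3 knockout libraries in each row; right, the 12 lowest ratios among genes with an 8mer, where the mimic (red circles) is the lowest of these 3 in each row.

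Published targets of miR-26a were mostly lower with the mimic, by less than 2-fold. Of 36 listed genes 33 were measured, and of these 26 lay below 0 and 7 above, the counting interval lay below 0 for 21 and above for 5, and none was called in either direction. Over all measured genes the interval lay below 0 for 18.8% and above for 19.1%. The median was -0.27, against -0.01 for all measured genes. Against the untransfected knockout the list's median was -0.13, and between negative control and untransfected knockout it was 0.02. An 8mer or 7mer-m8 was found for 29 of the 33, with a median of -0.30. The 4 members without such a site had nearly the same median, -0.27, with 3 of 4 below 0.

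Targets in metabolism and growth were below 0 for 8 of 8 measured genes. The long-chain acyl-CoA synthetase Acsl3 was at 32.18 against 18.46 TPM, with the mimic library the lowest of the 4. Acsl4, a synthetase for polyunsaturated fatty acids, was at 51.39 against 40.15 TPM but at 39.25 TPM in untransfected knockout cells. The kinase Gsk3b was level, at 45.55 against 44.76 TPM, although its 3′ UTR holds 3 sites.

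Targets in matrix and signalling had a median of -0.39, with 8 of 11 below 0. Loxl2, a lysyl oxidase that crosslinks collagen, was at 98.12, 120.54, 121.43 and 73.77 TPM from wild-type to mimic, a ratio of -0.73 (-0.79 to -0.67). With Plod2 it made a pair of collagen crosslinking genes whose lowest library was the mimic. The Notch ligand Jag1 was at 51.16 against 38.92 TPM, the sheddase Adam17 at 72.74 against 55.88 TPM, and Smad1, a transducer of BMP signals, at 18.08 against 13.35 TPM. The cytokine Il6, whose best site is a 7mer-A1, was at 13.52 against 8.69 TPM. Against these stood Ccn2, a matricellular growth factor with a 7mer-A1 only, at 474.73 against 641.18 TPM, and the kinase Map3k2 at 11.01 against 13.83 TPM.

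Targets in the cell cycle and in chromatin went both ways. The cyclin gene Ccne1 was at 30.25 against 19.77 TPM, a ratio of -0.62 (-0.82 to -0.42), with 23.84 TPM in untransfected knockout cells. Ccnd2 was at 414.22 against 308.8 TPM but at 315.63 TPM in untransfected knockout cells. The partner kinase Cdk6 was higher, at 12.79 against 17.11 TPM, with 2 8mers in a 3′ UTR of 10217 bases. Rb1, the retinoblastoma protein, had a ratio of -0.07 (-0.22 to 0.07). Hmga1, an architectural chromatin protein, was at 221.41 against 155.45 TPM but at 166.99 TPM in untransfected knockout cells. The related gene Hmga2 was at 29.21 against 33.63 TPM. Ezh2, which methylates histone H3, was at 18.02 against 16.43 TPM, a ratio of -0.14 (-0.34 to 0.06), although its 3′ UTR of 402 bases holds an 8mer, and its interval includes 0. The DNA demethylases Tet2 and Tet3, both with 8mers, had ratios of 0.27 (0.06 to 0.48) and -0.23 (-0.33 to -0.13). Against the untransfected knockout the median of the 7 measured chromatin targets was 0.03 for the mimic and 0.32 for the negative control. For the 6 cell cycle targets these medians were -0.07 and 0.02.

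The Ctdsp genes differed among themselves. Ctdsp2 lies at the locus of Mir26a-2 on chromosome 10 and has a 7mer-m8 in its 3′ UTR. It was at 102.1 against 83.34 TPM, a ratio of -0.32 (-0.38 to -0.25). Ctdspl2, also with a 7mer-m8, was at 7.85 against 8.53 TPM, and Ctdspl and Ctdsp1, without such a site, had ratios of -0.01 (-0.19 to 0.17) and 0.08 (-0.01 to 0.18).

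Genes that carry out silencing by small RNAs shifted little. Of 18 measured members, none of them called, 12 lay above 0, with a median of 0.03, which turned negative when counts were scaled by their plain totals. Ago2, the Argonaute that can cut its target, was at 17.38 against 24.77 TPM, and the decapping enzyme Dcp2 at 11.5 against 15.39 TPM. Tnrc6b, which links Argonaute to deadenylation and holds an 8mer, was at 11.31 against 9.24 TPM.

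Genes of mitosis were mostly a little lower. Of 32 measured members 30 lay below 0, none was called, and the median was -0.21. The intervals of 18 of 32 lay below 0 and none above, beside 18.8% and 19.1% of all measured genes. Cenpe, a kinetochore motor, was at 8.94 against 6.78 TPM, Cdca3, a regulator of mitotic entry, at 43.81 against 33.16 TPM and Birc5, survivin, at 62.08 against 48.93 TPM. None of the 32 holds an 8mer or 7mer-m8 in its 3′ UTR, beside 1503 of all 12321 measured genes with a 3′ UTR. The median against the untransfected knockout was -0.25. Genes of DNA replication went both ways, with 19 of 32 above 0 and a median of 0.04.

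Genes of cholesterol synthesis were lower as well. Of 25 members 22 lay below 0, the intervals of 19 lay below and of 1 above 0 (18.8% and 19.1% of all measured genes), none was called, and the median was -0.20. Acat2, an acetyl-CoA thiolase with an 8mer, was at 58.58 against 36.66 TPM, and the mevalonate pathway kinase Pmvk, without a site, at 32.92 against 21.77 TPM. Cyp51, the lanosterol demethylase, was at 87.83 against 64.94 TPM and Hmgcs1, the HMG-CoA synthase of the pathway, at 135.79 against 107.38 TPM. The sterol desaturase Sc5d was the member whose interval lay above 0. Cyp51, Hmgcs1 and Sc5d were named after their values were seen. Of these 25 genes 2 hold an 8mer or 7mer-m8, beside 1503 of all 12321 measured genes with a 3′ UTR. The list's median against the untransfected knockout was -0.33.

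Interferon-stimulated genes were higher. Of 32 measured members 29 lay above 0, with 3 called higher and 0 lower (the same rule called 0.855% of all measured genes higher). Their median was 0.26, and 0.17 for the 27 with at least 5 CPM. Intervals lay above 0 for 19 and below for 1, beside 19.1% and 18.8% of all measured genes. Against the untransfected knockout the median was 0.15. Usp18, a protease that removes ISG15, was at 1.32 against 3.64 TPM, with 2.39 TPM in the untransfected knockout. The antiviral gene Ifit1 was at 3.71 against 7.95 TPM, with 5.32 TPM in the untransfected knockout. Usp18 had 21 counts with the negative control and 54 with the mimic. Ifi44, also called, had 34 and 69, so both rest on few reads. Gbp2, a guanylate-binding protein, went the other way, from 15.92 to 10.93 TPM, and was named after its value was seen. Of 13 sensors of double-stranded RNA and their mediators none was called and the median was 0.10, with the transcription factor Irf7 at 4.87 against 8.72 TPM.

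Members of the matrix and contractile lists were mostly above 0. Over all measured genes 0.855% were called higher. Of 19 measured elastic fibre genes 2 were called higher and 13 lay above 0, with a median of 0.19. Of 30 matrix glycoproteins 2 were called higher and 24 lay above 0 (median 0.16), and of 20 collagens 2 and 13 (median 0.16). None of the members of these 3 lists was called lower. Intervals lay above 0 for 10 elastic fibre genes, 17 glycoproteins and 11 collagens (19.1% of all measured genes). They lay below 0 for 3, 3 and 7 in the same order (18.8% of all measured genes). Col8a1, a network-forming collagen, was at 66.65 against 160.87 TPM. Col8a2, the other called collagen, had 25 counts with the negative control and 59 with the mimic. The contractile genes, none of them called, had a median of 0.25 with 16 of 18 above 0, and Acta2, smooth muscle actin, was at 1803.91 against 2516.9 TPM. Between negative control and untransfected knockout the medians of these lists, in the same order, were -0.17, -0.13, -0.14 and -0.23. Between mimic and untransfected knockout they were 0.04, 0.05, 0.15 and 0.03, and both sets of values share a library with the main comparison.

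Of 18 collagen-modifying enzymes none was called, 13 lay above 0, and the median was 0.06. Their lowest ratios were those of Plod2 and Loxl2, followed by the transglutaminase Tgm2 at 110.86 against 84.23 TPM. Among 24 matrix proteases and inhibitors 1 was called in each direction (0.855% higher and 0.352% lower over all measured genes). They were Timp3, an inhibitor of metalloproteases, at 708.86 against 1524.63 TPM, and Adam19. The median of the list was -0.01. Reck, another inhibitor of metalloproteases, was at 9.59 against 18.85 TPM.

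Markers of cartilage and tendon were the list with the highest median. Of its 10 members 9 were measured, and these lay above 0, with a median of 0.92. Called higher were 4 of them, beside 0.855% of all measured genes. Matn3, the member under the limit, had 4 counts with the negative control and 0 with the mimic. The summed level was 216.0 TPM in the mimic and 129.37 TPM in the control-transfected library. Untransfected knockout cells were at 210.12 TPM and wild-type cells at 635.41 TPM, so that the control-transfected library was the lowest. The called members differed in their depth. Col2a1, the main cartilage collagen, had 168 counts with the negative control and 325 with the mimic. Acan, the cartilage proteoglycan aggrecan, had 5 counts with the negative control and 24 with the mimic, Scx, the tendon transcription factor scleraxis, 27 and 53, and Tnmd, tenomodulin, 14 and 32, so these 3 rest on few reads. The part of such cells in the higher matrix genes was not tested.

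The remaining lists had medians between -0.07 and 0.20. Their counts of called genes stand beside 0.855% called higher and 0.352% called lower of all measured genes. Measured were 21 of 28 listed cytokines and chemokines, 26 of 32 Hox genes, 22 of 23 immediate early genes, 30 of 32 matrix glycoproteins and 32 of 34 interferon-stimulated genes, the others being too rarely counted or not matched. Immediate early genes lay above 0 for 20 of 22 (median 0.20), with Klf4, a transcription factor, at 36.09 against 57.21 TPM. Targets of YAP and TAZ had a median of 0.18 with 1 of 23 called higher, and genes of the TGF-beta response a median of 0.19 with none of 22 called. Cytokines and chemokines had a median of 0.14 with none of 21 called, and p53 targets a median of -0.03 with 1 of 19, Perp, called lower. Among p53 targets Trp53inp1, which has a 7mer-m8, was at 63.69 against 40.14 TPM. Polycomb genes (11) had a median of 0.00, genes of the oxidative stress response (12) one of -0.07 and of the unfolded protein response (18) one of -0.02, with none called. Of 26 Hox genes 1 was called higher, Hoxb9, and 1 lower, Hoxa9, with a median of 0.06 whose sign depended on the scale. Macrophage markers had a median of -0.05 with none called and Aif1, an actin-binding protein of macrophages, as the lowest, at 62.67 against 33.54 TPM. Fibroblast markers had a median of 0.10.

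**Figure D5:**
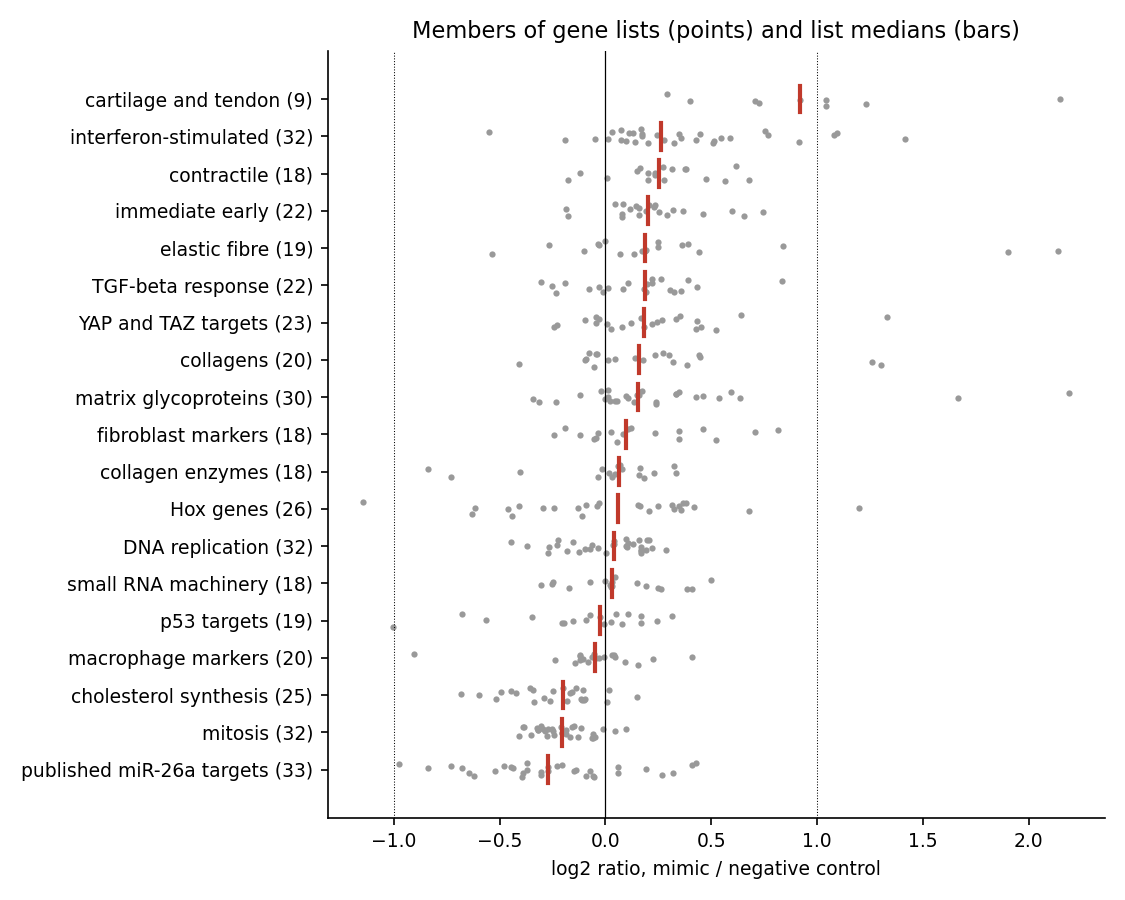
Log2 ratio of mimic to negative control (horizontal axis) for the measured members of each gene list (grey points) and the list's median (red bar), ordered by median, with the number of members in parentheses; dotted lines mark 2-fold and vertical scatter within a row carries no value. Published miR-26a targets are lowest, at a median of -0.27, and cartilage and tendon markers highest, at 0.92.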

How the data were processed

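RNA-seq of 4 mouse libraries, 1 per group, was used as deposited. Per the submitters' processing notes, Bowtie2, HISAT and FastQC were run, and the builds were mm10 and GRCm38.p6, with no role given for any. How counts were made, on which annotation and with or without strand is not given in the sources used here. Estimated counts deposited by the authors are unscaled and not all whole (4.99% to 5.28% have decimals). For levels the deposited TPM were taken, whereas FPKM and a normalized count signal, also deposited, were not used. The log2 ratios, with p-values and false discovery rates, in the authors' deposited table equal the unscaled count ratio for all 14642 genes counted in both libraries, within 0.001.

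Counts were scaled with edgeR TMM factors (1.02 for negative control, 0.997 for mimic), and log2 ratios were taken after a prior of 1 count. Genes with at least 1 CPM in either library were measured. Counts were rounded for the exact 95% conditional binomial intervals, which cover counting error. A count of 0 allows up to 3 counts (0.155 and 0.161 CPM). The procedure was tested on simulated counts. Sites came from GENCODE M21 3′ UTRs, found for 15791 genes (96.2%), on the transcript strand.

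Genes were named as the 12 largest ratios in each direction among called genes with at least 5 TPM, the 12 lowest among 8mer genes, the 4 largest of each described list, published targets with the Ctdsp family, and the 5 most abundant macrophage and fibroblast markers. Predicted and clone names were left out of the first group. The genes, the 31 lists and the rules were chosen with earlier results of these data known, and the splits by 3′ UTR length, level and site features were chosen after the data were seen. Of the 172 named genes 49 overlap an exon on the opposite strand and 11 one on the same strand, and may share reads. Alternatives were other scalings, filters, folds, priors, TPM ratios and 3′ UTR definitions. Software was R 4.3.3, edgeR 4.0.16, DESeq2 1.42.0, Python 3.11.15, scipy 1.17.1, numpy 2.4.6, matplotlib 3.10.9 and pandas 2.3.3.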

Additional observations from a re-analysis of the deposited data

How the results depend on the processing

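No paired analysis was possible because each group is 1 library, and for the same reason no library could be left out. With 107 genes higher and 44 lower as reported, at least 5 CPM gave 43 and 10, a 1.5-fold limit 359 and 210, and the calls of the authors' deposited table, at a false discovery rate of at most 0.001, 46 and 26, of which 44 and 16 were shared. Without a low-count filter 140 were higher and 82 lower, and a prior of 5 counts gave 89 and 27. Plain total counts (101 and 53), DESeq2 size factors (111 and 42) and TPM ratios (73 and 34) stayed within 1.5 times, but only 47 and 14 of the TPM calls were shared. Plain total counts moved the median of all genes to -0.04, that of 8mer genes from -0.09 to -0.13 and that of genes with an 8mer or 7mer-m8 from -0.04 to -0.080. Under the other settings the 8mer median ranged from -0.11 to -0.08. Of the 172 named genes 18 moved beyond their interval under total counts and 3 under TPM. The 3 that turned sign, Zbp1 and Ctdspl under TPM and Tyrobp under total counts, have intervals that include 0. The sign of a list's median turned for small RNA machinery, polycomb and Schwann cell genes under total counts, for Hox genes under TPM, and for proteases and Hox genes at 5 CPM. Depth limits rare genes most, with a median interval width of 1.3 on the log2 scale between 1 and 5 CPM.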

Other observations

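Between untransfected knockout and wild-type cells, libraries that the mimic comparison does not use, the same 8mer classes had medians of 0.31, 0.19, 0.04 and -0.067 on the log2 scale from the shortest to the longest of the 4 classes of 3′ UTR length. Genes without a site had 0.145, 0.02, -0.02 and -0.075 in the same order. The median of 8mer genes was above that of genes without a site in each of the 4 classes, by little in the longest, and in the mimic comparison it was below in each. Over all lengths the knockout to wild-type order was the other way, at 0.005 for 8mer genes and 0.045 without a site. The 7mer-m8 genes had 0.0975, -0.017, -0.015 and -0.036 from the shortest class to the longest. They were below genes without a site up to 1222 bases and above from 1223 bases. These are values of single libraries, and the part of cell mixture in them was not tested, since macrophage markers summed to 22391.85 TPM in wild-type and 32700.54 TPM in knockout cells.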
